A study of Mus musculus with 8 samples.

Results

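The endoplasmic reticulum (ER) is the compartment in which secreted and membrane proteins enter the secretory route and fold. A set of 32 genes of ER protein folding and ER stress was examined, comprising chaperones, disulfide isomerases, the machinery of ER-associated degradation and regulators of the unfolded protein response. The genes were selected by symbol, all 32 were found among the 23282 gene entries of the count table, and 31 passed the filter on low counts. Counts came from hematopoietic stem and progenitor cells (HSPC) of mouse bone marrow, from 2000 sorted cells in each sample. There were 4 samples labelled Hdc-/-, from mice on a C57BL/6 background, and 4 samples labelled WT, from C57BL/6 mice. Histidine decarboxylase, the product of Hdc, makes histamine, and the comparison asks how its loss changes expression in these cells. The sources used here do not state the deleted part of Hdc, the sort markers, the sex and age of the mice, or whether each sample is a mouse of its own. The p-values therefore cover sample-to-sample spread, which could be technical.

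The unfolded protein response has 3 sensors in the ER membrane. Ern1 encodes IRE1, an RNase that splices the Xbp1 transcript into its active form; Atf6 encodes a membrane-tethered transcription factor that is cut free in the Golgi; and Eif2ak3 encodes PERK, a kinase that slows translation and thereby favours the synthesis of ATF4. ATF6 and spliced XBP1 are known to raise ER chaperones and degradation factors, whereas ATF4 raises genes of amino acid supply and, through CHOP, of cell death. In bone marrow, cells with a large secretory load, such as granule-making myeloid progenitors and antibody-making plasma cells, are known for high levels of this machinery, and hematopoietic stem cells for a low tolerance of ER stress.

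Libraries held 17218697 to 19775106 reads on gene entries in the group labelled Hdc-/- and 16322738 to 18054954 reads in WT. Hdc itself went against the labels, with 875, 773, 821 and 740 reads in the libraries labelled Hdc-/- (numbers 1 to 3, then 1 without a number, the order kept below), against 275, 199, 261 and 263 reads in WT libraries 1 to 4 (log2 fold change 1.58, SE 0.11, edgeR quasi-likelihood adjusted p = 6.42e-08). The name libraries labelled Hdc-/- is used for that reason, and directions depend on the labels being right. Counts are per gene, so a transcript left by an altered Hdc allele would be counted too. Library WT 1 stood apart from the other WT libraries on the second principal component, which held 15% of the variance. WT 1 was also the highest of all 8 libraries in 14 of the 31 tested members and the lowest in 7. All 12 stem and progenitor markers (such as Kit, Cd34 and Flt3) passed the filter, with summed levels of 5762 to 5967 in the libraries labelled Hdc-/- and 4712 to 5619 in WT. Of these markers 2 rose and 1 fell. All levels are read counts scaled to a common library size (CPM) after TMM scaling, which sets library sizes by the bulk of genes.

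In the libraries labelled Hdc-/-, 3 chaperones or co-chaperones, 1 disulfide isomerase and the transcription factor gene Xbp1 fell, by small steps. The members of ER-associated degradation, the 3 sensors and the members of the ATF4 branch did not pass in edgeR. Of the 31 tested members 5 fell and none rose at an adjusted p under 0.05 (16.1% lower), where 2.71% of the 13005 genes tested were called lower 2.05% higher and 4.76% in either direction. The 5 were Sdf2l1, Manf, Hspa5, P4hb and Xbp1. Log2 fold changes, libraries labelled Hdc-/- over WT, were below 0 in 20 of the 31 members, against 49.1% of all tested genes, and their median was -0.12, against 0.00407 over all tested genes. The groups did not overlap in 10 of the 31 members (32.3%), and all 10 were lower in the libraries labelled Hdc-/-; non-overlap was seen in 12.5% of all tested genes, as lower in 6.88% and as higher in 5.64%. An unadjusted p under 0.05 was found in 11 members, against 18.7% of all tested genes, or 9.46% counting those that were lower. These are whole-population RNA levels, in which fewer cells of a type and less RNA per cell cannot be told apart.

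The number of members called changed when single libraries were left out. It was 2 without library 1, 1 without library 2, 1 without library 3 and 3 without the unnumbered library of those labelled Hdc-/-. Without WT 1 it was 9, without WT 2 it was 2, without WT 3 it was 3 and without WT 4 it was 4. Sdf2l1 was called in each of these fits. Over all genes, those called lower numbered 352 with all 8 libraries. Without library 1, 2, 3 or the unnumbered library of those labelled Hdc-/- they numbered 278, 264, 242 and 278. Without WT 1, 2, 3 or 4 they numbered 433, 286, 322 and 278. Without WT 1, the additional members called were Hyou1, Pdia4, Pdia6 and Edem1, all lower, in a fit that called 3.29% of all genes lower. DESeq2 called 7 members, adding Hsp90b1 and Pdia6, where 3.86% of all genes were called lower. Limma-voom with sample quality weights called 10, where 3.81% of all genes were called lower.

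**Figure D1:**
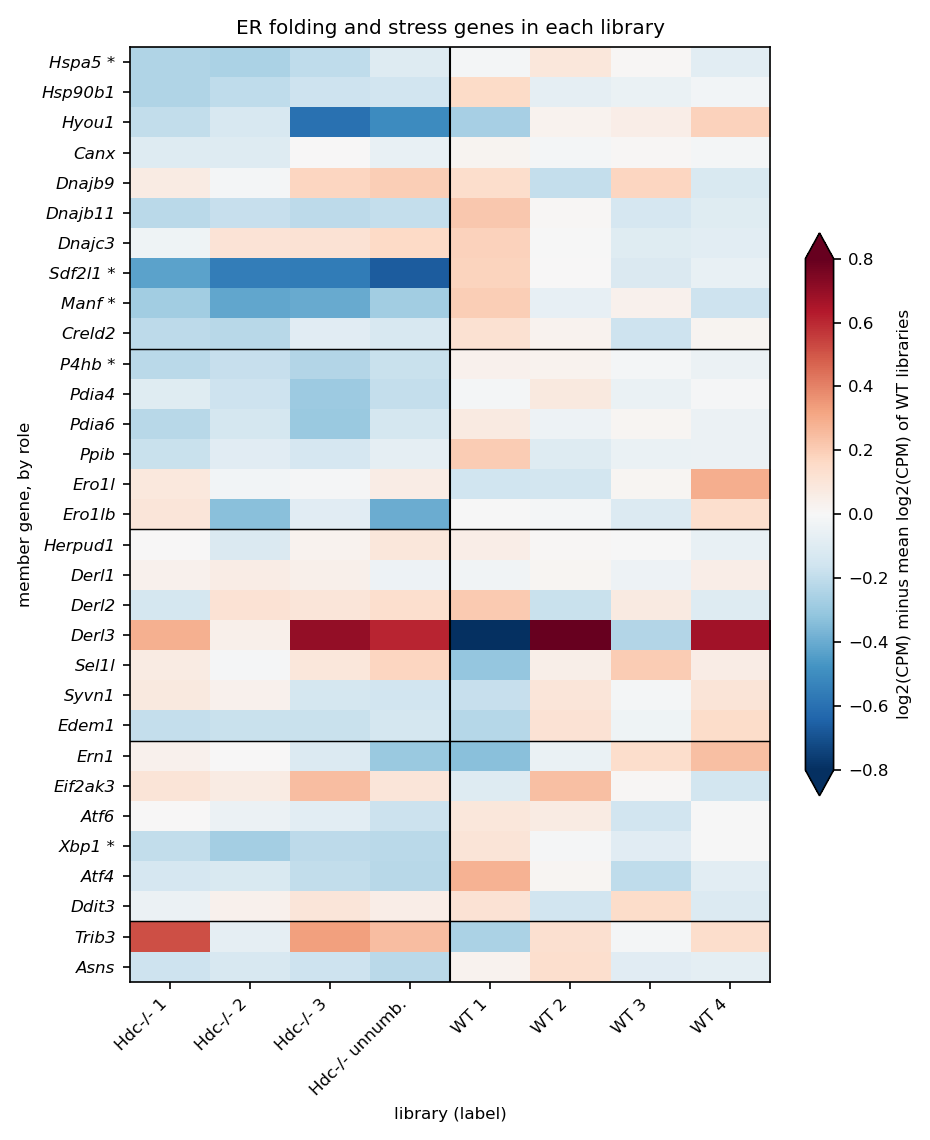
Level of the 31 tested members in each library, as log2 CPM minus the mean log2 CPM of the 4 WT libraries; blue is lower, red is higher, colours are capped at 0.8, lines part the roles (chaperones, isomerases and oxidases, ER-associated degradation, sensors and transcription factors, further ATF4 targets), and asterisks mark an adjusted p under 0.05. Sdf2l1, Manf, Hspa5, P4hb and Xbp1 were lower in all 4 libraries labelled Hdc-/- than in any WT library, and WT 1 holds the highest value of 14 members.

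Among the 10 chaperones and co-chaperones, 3 fell and none rose, where 2.71% of all tested genes were called lower. Their median log2 fold change was -0.20. Sdf2l1, a small luminal protein that works with the J-domain co-chaperone encoded by Dnajb11, had the largest fall among the members. Its levels were 60.6, 55.6, 55.4 and 51.5 CPM in the libraries labelled Hdc-/-, against 92.2, 81.9, 75.2 and 78.2 CPM in WT. Every library labelled Hdc-/- lay below every WT library, and WT 1 was the highest of the 8. Libraries labelled Hdc-/- averaged 55.8 ± 3.73 CPM, against 81.9 ± 7.39 CPM for WT libraries (SD, n = 4 each), and the log2 fold change was -0.55 (SE 0.08, edgeR adjusted p = 0.000569).

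Manf, a secreted factor that is held in the ER and released under stress, stood at 71.0, 64.5, 65.1 and 71.1 CPM in the libraries labelled Hdc-/-, against 98.7, 82.4, 88.3 and 76.8 CPM in WT. The groups did not overlap, although WT 4 came within a few CPM of the libraries labelled Hdc-/-. Manf fell by 0.35 on the log2 scale (SE 0.09, edgeR adjusted p = 0.0249). The call was lost without library 2 (adjusted p = 0.0877) or library 3 (adjusted p = 0.0957) of those labelled Hdc-/- and without WT 3 (adjusted p = 0.0581).

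Hspa5 encodes BiP, the Hsp70 of the ER lumen, which also binds the 3 sensors. Its levels were 912, 904, 935 and 1005 CPM in the libraries labelled Hdc-/-, against 1069, 1150, 1085 and 1016 CPM in WT. The unnumbered library labelled Hdc-/- and WT 4 nearly touched, and the other 6 libraries were well apart. Hspa5 fell by 0.20 (SE 0.05, edgeR adjusted p = 0.042), to 0.870 of its WT level. This call was lost in 7 of 17 alternatives, among them the fits without library 1, 2 or 3 labelled Hdc-/- and without WT 2 or WT 3, with adjusted p from 0.00614 to 0.149 over all 17. Hspa5 lies on chromosome 2, as Hdc does, with 371 tested genes between them. Of the 50 tested genes nearest to it, 25 on each side, 2 were called, where 4.76% of all tested genes were called.

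The Hsp90 of the ER, Hsp90b1, had 422, 432, 444 and 448 CPM in the libraries labelled Hdc-/-, against 552, 473, 479 and 489 CPM in WT. The groups did not overlap, but the gene did not pass (-0.19, SE 0.06, edgeR adjusted p = 0.0734). Hyou1, the large Hsp70-like exchange factor of BiP, varied within both groups. It had 60.1, 62.9, 45.5 and 48.5 CPM in the libraries labelled Hdc-/-, against 57.2, 70.1, 71.5 and 78.3 CPM in WT, and its log2 fold change of -0.35 (SE 0.11) was as large as that of Manf but did not pass (edgeR adjusted p = 0.097).

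The remaining chaperone genes did not pass in edgeR. Dnajb11 had 108, 110, 109 and 110 CPM in the libraries labelled Hdc-/-, against 146, 126, 114 and 118 CPM in WT, with no overlap (-0.21, SE 0.08, edgeR adjusted p = 0.158). Creld2, a luminal protein with isomerase activity, had a log2 fold change of -0.17 (95% interval -0.34 to 0.01). Canx, the membrane lectin chaperone calnexin, had 916, 915, 983 and 944 CPM in the libraries labelled Hdc-/- against 998, 971, 990 and 973 CPM in WT, and its interval from -0.17 to 0.04 leaves room only for small differences. The J-domain co-chaperone genes Dnajb9 (0.10, 95% interval -0.14 to 0.34) and Dnajc3 (0.08, 95% interval -0.07 to 0.24) had values above 0.

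Some of the members' promoters hold the ER stress response element, shown here because ATF6 and XBP1 are known to act through it. Of the 10 chaperones and co-chaperones it was found in Hspa5, Hsp90b1, Canx, Dnajc3 and Creld2 and not in Sdf2l1, Dnajb9 or Dnajb11, while Hyou1 and Manf had no promoter in the table. The element was searched as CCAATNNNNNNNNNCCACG on both strands of RefSeq promoters (GRCm38.p6, 250 bases before to 50 after each start), which were found for 28 of the 32 members. It was present in 9 of the 28 (32.1%), against 0.119% of all 32851 promoters. Members were chosen as genes of ER folding and stress, so this contrast is tied to that choice and is not a result of the counts. The element runs with the gene in some promoters and against it in others, in which case it reads CGTGG, 9 other bases and ATTGG. The fixed letters are in capitals below.
Hspa5, chr2:34772015-34772053, + strand: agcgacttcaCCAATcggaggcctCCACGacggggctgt
Hsp90b1, chr10:86705628-86705666, - strand: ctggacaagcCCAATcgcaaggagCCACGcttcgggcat
Hsp90b1, chr10:86705523-86705561, - strand: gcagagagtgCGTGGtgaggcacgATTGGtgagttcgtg
Canx, chr11:50325790-50325828, - strand: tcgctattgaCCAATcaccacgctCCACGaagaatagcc
Dnajc3, chr14:118937817-118937855, + strand: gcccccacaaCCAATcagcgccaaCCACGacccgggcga
Creld2, chr15:88819510-88819548, + strand: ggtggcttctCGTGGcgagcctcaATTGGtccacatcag
Pdia6, chr12:17266481-17266519, + strand: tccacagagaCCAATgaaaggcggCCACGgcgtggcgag
Ero1lb, chr13:12565672-12565710, + strand: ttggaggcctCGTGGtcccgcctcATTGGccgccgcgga
Derl3, chr10:75893232-75893270, + strand: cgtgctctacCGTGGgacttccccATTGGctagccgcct
Syvn1, chr19:6046522-6046560, + strand: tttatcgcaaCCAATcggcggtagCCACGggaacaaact

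A related form, the ER stress response element II, searched on both strands as ATTGG, 1 base of any kind and CCACG, was present in the promoters of Herpud1 and Dnajb11 and in 0.0365% of all promoters. Both windows are shown with the fixed letters in capitals.
Herpud1, chr8:94386367-94386397, + strand: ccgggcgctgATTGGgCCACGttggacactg
Dnajb11, chr16:22857842-22857862, + strand: cccggcggcgATTGGcCCACG

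Called members were found with and without the full element, where 2.71% of all tested genes were called lower. Of the 9 members with it, 1 fell, Hspa5, with a median log2 fold change of -0.17 and a range from -0.20 to 0.18. Of the 18 tested members whose promoter lacked it, 3 fell, with a median of -0.11 and a range from -0.55 to 0.26. The element was found in the promoters of 28 other genes, of which 9 were tested. Of these 2 fell, the ER lectin chaperone gene Calr (-0.25) and Xlr3b (-2.37), a gene with close copies whose counts are uncertain; both were named after their values were seen.

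The promoters of Hspa5 and of 2 members called lower that lack the full element, Sdf2l1 and P4hb, are shown over the 250 bases before the start, with each CCAAT and CCACG on either strand in capitals (ATTGG and CGTGG where reversed). CCAAT was present in 37.4% of all promoters and CCACG in 32.8%, both strands searched. Hspa5 holds CCAAT 4 times and CCACG 1 time, Sdf2l1 holds each of them 3 times, and P4hb each 1 time, at other spacings than in the element. Xbp1, the other called member with a promoter that lacks the element, holds 0 CCAAT and 0 CCACG in this stretch and is not printed, and Manf had no promoter in the table.
Hspa5, chr2:34771840-34772089, + strand: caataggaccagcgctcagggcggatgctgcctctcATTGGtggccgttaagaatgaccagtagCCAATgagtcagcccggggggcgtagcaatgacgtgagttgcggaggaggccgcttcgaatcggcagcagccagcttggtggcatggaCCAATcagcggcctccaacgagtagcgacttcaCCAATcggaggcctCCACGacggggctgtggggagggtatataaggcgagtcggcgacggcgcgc
Sdf2l1, chr16:17132384-17132633, - strand: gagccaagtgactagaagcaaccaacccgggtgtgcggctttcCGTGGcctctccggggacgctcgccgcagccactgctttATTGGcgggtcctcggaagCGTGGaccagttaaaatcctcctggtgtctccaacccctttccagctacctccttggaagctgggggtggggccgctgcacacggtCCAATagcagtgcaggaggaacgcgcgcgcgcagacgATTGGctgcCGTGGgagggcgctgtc
P4hb, chr11:120573254-120573503, - strand: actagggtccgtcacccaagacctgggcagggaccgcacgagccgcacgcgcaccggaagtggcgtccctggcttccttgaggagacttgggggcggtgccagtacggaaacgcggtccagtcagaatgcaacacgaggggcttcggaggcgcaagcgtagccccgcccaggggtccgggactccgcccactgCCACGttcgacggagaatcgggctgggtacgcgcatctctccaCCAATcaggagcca

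Among the 6 isomerase and oxidase genes 1 fell and none rose, where 2.71% of all tested genes were called lower. Their median log2 fold change was -0.18. P4hb, which encodes protein disulfide isomerase, had 590, 604, 582 and 606 CPM in the libraries labelled Hdc-/-, against 702, 699, 679 and 665 CPM in WT. The libraries of each group lay close together, with a spread of 1.92% of the mean in the libraries labelled Hdc-/- and 2.55% in WT, so that a step of -0.20 (SE 0.05) passed (edgeR adjusted p = 0.0204). The call was lost without any 1 of the 4 libraries labelled Hdc-/- (adjusted p from 0.0563 to 0.087) and without WT 2 (adjusted p = 0.0712), while the fold change stayed between -0.23 and -0.19 over 17 alternatives.

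The other isomerases of the family had fold changes close to that of P4hb. Pdia6 had 312, 331, 296 and 331 CPM in the libraries labelled Hdc-/-, against 384, 355, 368 and 352 CPM in WT (-0.20, SE 0.06, edgeR adjusted p = 0.0574). Pdia4 had 264, 252, 230 and 247 CPM in the libraries labelled Hdc-/-, against 278, 298, 272 and 280 CPM in WT (-0.18, SE 0.06, edgeR adjusted p = 0.0895). Neither passed in edgeR, although the groups did not overlap in either gene. Ppib, a prolyl isomerase of the lumen, had -0.12 (95% interval -0.30 to 0.06). The oxidase genes, whose products pass electrons from the isomerases to oxygen, did not pass: Ero1l had 0.02 (95% interval -0.21 to 0.25) and Ero1lb had -0.17 (95% interval -0.44 to 0.10).

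**Figure D2:**
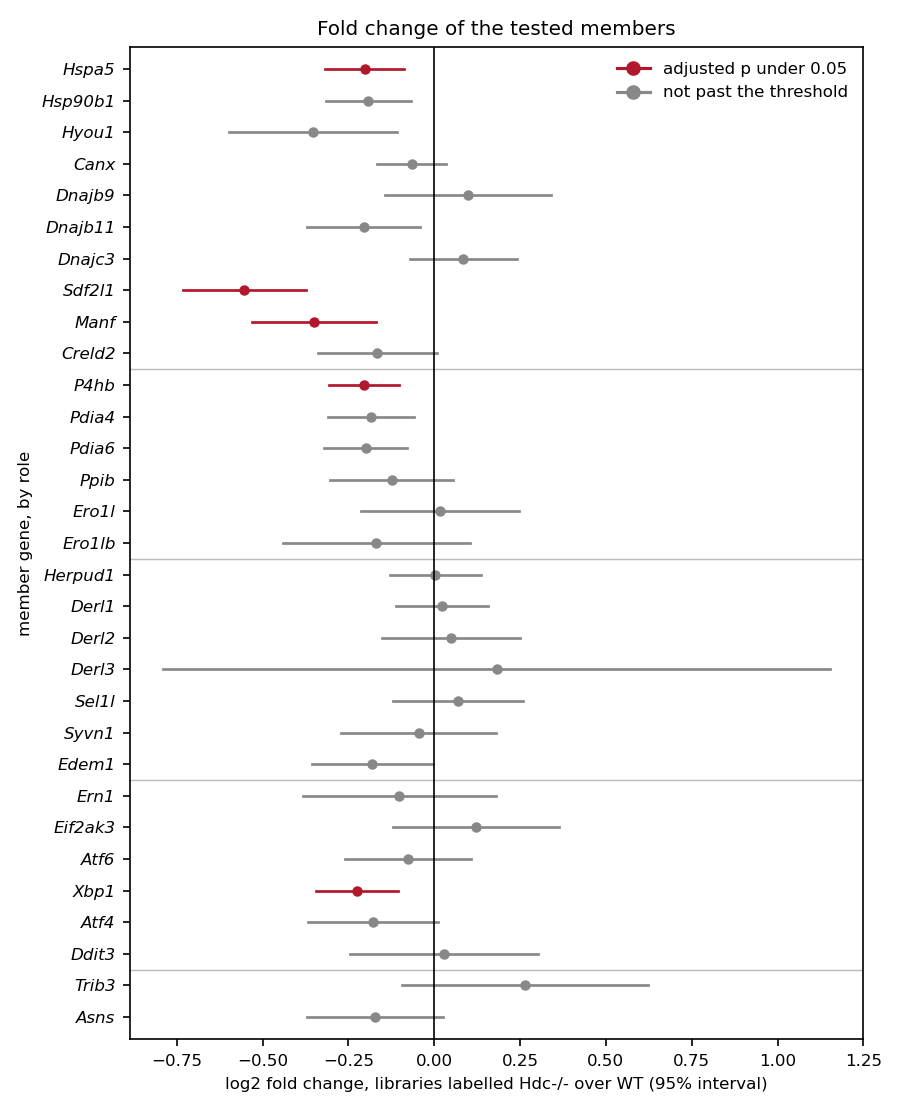
Log2 fold change of the 31 tested members, libraries labelled Hdc-/- over WT, with 95% intervals from edgeR's quasi-likelihood fit, ordered by role; red marks an adjusted p under 0.05. The 5 called members lie between -0.55 and -0.20, the 7 degradation genes lie between -0.18 and 0.18, and Derl3 has the widest interval.

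None of the 7 genes of ER-associated degradation passed in edgeR or DESeq2, and 1, Edem1, had an unadjusted p under 0.05. Their median log2 fold change was 0.02, with 5 of 7 above 0. Herpud1, a scaffold of the ubiquitin ligase complex, had 158, 146, 161 and 168 CPM in the libraries labelled Hdc-/-, against 164, 159, 158 and 152 CPM in WT. The groups were interleaved, and the 95% interval of the log2 fold change ran from -0.13 to 0.14. The interval was -0.11 to 0.16 for Derl1 and, wider, -0.15 to 0.25 for Derl2, members of the derlin family of the export channel.

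Sel1l and Syvn1 encode the adaptor and the ubiquitin ligase at the core of that complex. Sel1l had 143, 136, 145 and 154 CPM in the libraries labelled Hdc-/-, against 110, 141, 157 and 142 CPM in WT. WT 1 was well below the other 7 libraries, and the log2 fold change of 0.07 (SE 0.09) became -0.02 without it. Syvn1 had -0.05 (SE 0.11). Edem1, which hands misfolded glycoproteins to the complex, had 82.5, 83.2, 83.1 and 85.3 CPM in the libraries labelled Hdc-/-, against 80.3, 102, 91.9 and 104 CPM in WT. The libraries labelled Hdc-/- were nearly equal while those of WT were spread out, and the difference did not pass (-0.18, SE 0.08, edgeR adjusted p = 0.253) except without WT 1 (-0.25, adjusted p = 0.0267) and in limma-voom with sample quality weights (-0.23, adjusted p = 0.0465). Derl3, a derlin of highly secretory cells, had 17 to 29 reads per library in those labelled Hdc-/- and 6 to 29 in WT, too few to fix a direction (0.18, 95% interval -0.79 to 1.15).

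Of the 6 sensors and transcription factors only Xbp1 passed, where 4.76% of all tested genes were called in either direction. It had 247, 235, 245 and 244 CPM in the libraries labelled Hdc-/-, against 305, 282, 266 and 283 CPM in WT. The groups did not overlap, and the libraries labelled Hdc-/- were closer together than those of WT. Xbp1 fell by 0.225 on the log2 scale (SE 0.06, edgeR adjusted p = 0.0298), a call lost without any 1 of the libraries labelled Hdc-/- (adjusted p from 0.0649 to 0.114) and without WT 2 (adjusted p = 0.0738) or WT 4 (adjusted p = 0.0693). Counts per gene do not separate the spliced from the unspliced Xbp1 transcript, so they carry no reading of IRE1 activity.

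The 3 sensor genes did not pass. Ern1 had 22.6, 22.1, 20.5 and 18.0 CPM in the libraries labelled Hdc-/-, against 17.5, 21.3, 24.3 and 26.1 CPM in WT (-0.10, SE 0.13, edgeR adjusted p = 0.744). Eif2ak3 had 23.2, 22.5, 25.6 and 23.1 CPM in the libraries labelled Hdc-/-, against 20.1, 25.5, 21.7 and 19.5 CPM in WT (0.12, SE 0.11, edgeR adjusted p = 0.623). Atf6 had 49.4, 47.7, 46.4 and 43.9 CPM in the libraries labelled Hdc-/-, against 52.5, 51.6, 44.3 and 49.2 CPM in WT (-0.08, SE 0.09, edgeR adjusted p = 0.698). In all 3 the groups overlapped.

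The members of the ATF4 branch gave no call in edgeR, while Mthfd2, an ATF4 target outside the members, fell, as given below. Atf4 itself had 99.1, 99.8, 94.9 and 93.1 CPM in the libraries labelled Hdc-/-, against 132, 110, 94.5 and 102 CPM in WT, with WT 1 far above the rest (-0.18, SE 0.09, edgeR adjusted p = 0.301). Ddit3, which encodes CHOP, had 13.6, 14.4, 14.9 and 14.5 CPM in the libraries labelled Hdc-/-, against 15.2, 12.6, 15.5 and 12.97 CPM in WT (0.03, 95% interval -0.24 to 0.30). Trib3, a pseudokinase induced by CHOP and ATF4, had 11.9, 7.90, 10.4 and 9.86 CPM in the libraries labelled Hdc-/-, against 6.96, 9.08, 8.20 and 9.17 CPM in WT. Its log2 fold change of 0.26 was the highest among the members, with an interval from -0.10 to 0.62, and 1 library labelled Hdc-/- lay inside the WT range.

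Asns, asparagine synthetase, was lower in every library labelled Hdc-/-, at 30.7, 31.5, 30.7 and 29.6 CPM against 35.2, 37.9, 32.4 and 32.6 CPM in WT, but did not pass (-0.17, SE 0.09, edgeR adjusted p = 0.346). Chac1, which breaks down glutathione, had 4, 2, 7 and 0 reads in the libraries labelled Hdc-/-, against 6, 12, 2 and 13 reads in WT. It was under the filter on low counts and was not tested. Chac1 lies on chromosome 2 with 78 tested genes between it and Hdc, and Trib3 on the same chromosome with 142 between. Of the 50 tested genes nearest to Trib3, 5 were called, a larger share than the 4.76% of all tested genes.

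The core of the C/EBP-ATF response element, through which ATF4 acts, was searched as TGATGNAA on both strands and was present in 4 of the 28 members with a promoter (14.3%), against 3.97% of all promoters. The 4 were Chac1, Trib3, Asns and Herpud1, and the matches are shown with the fixed letters in capitals, reversed where the element runs against the gene.
Chac1, chr2:119351039-119351066, + strand: ttccctgccgTTgCATCActcctgccag
Trib3, chr2:152344039-152344056, - strand: tagctcaggtTTaCATCA
Asns, chr6:7693215-7693242, - strand: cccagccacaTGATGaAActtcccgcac
Herpud1, chr8:94386307-94386334, + strand: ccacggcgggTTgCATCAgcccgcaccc
None of the 3 that were tested was called in edgeR or DESeq2, with log2 fold changes of 0.26, -0.17 and 0.00337 for Trib3, Asns and Herpud1, of which Asns alone had groups that did not overlap. Chac1, Trib3 and Asns were listed as ATF4 targets, so the share of members with this core is tied to the choice of genes.

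**Figure D3:**
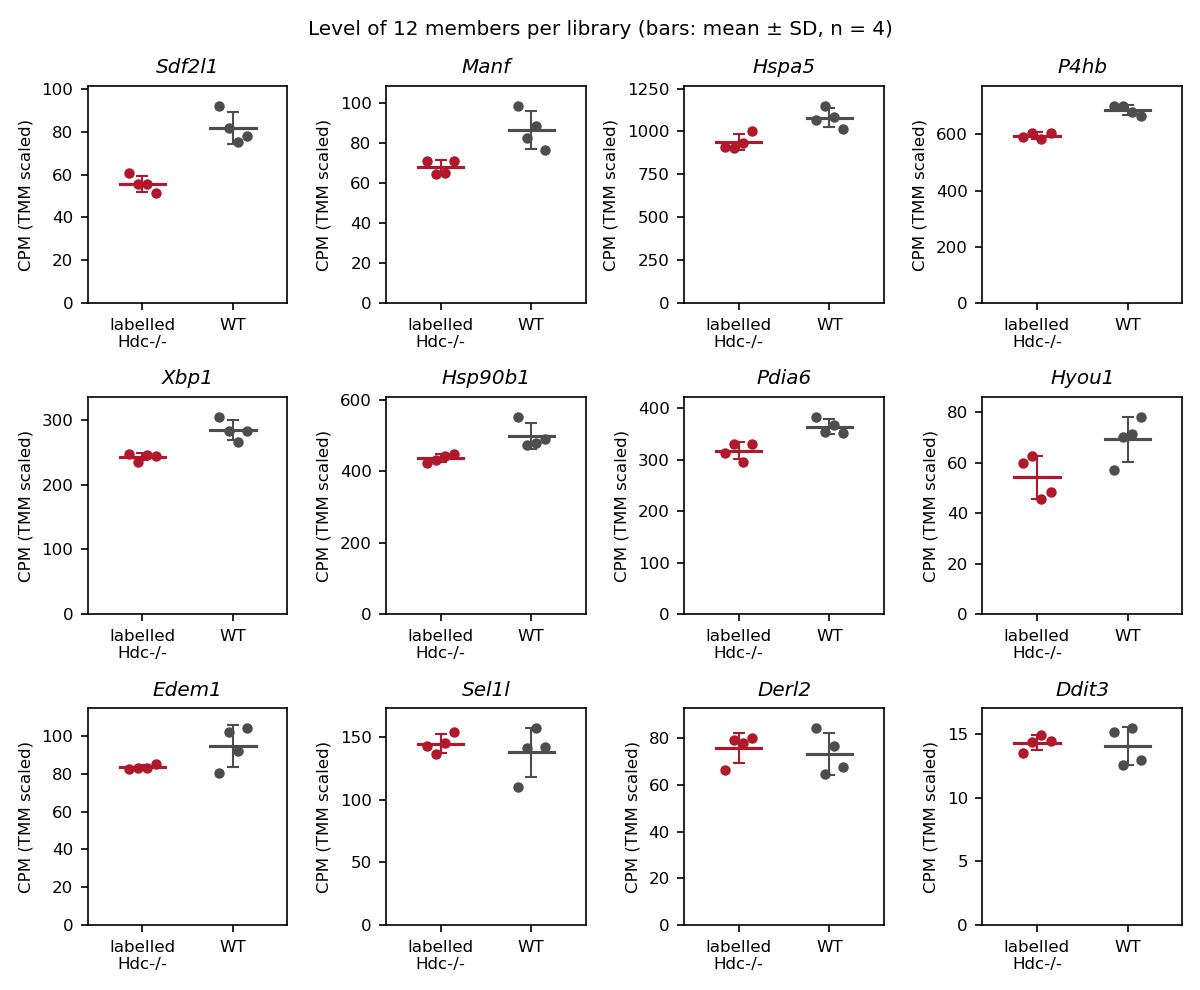
CPM after TMM scaling in each library for 12 members, libraries labelled Hdc-/- left and WT right, with the mean and SD (n = 4); axes start at 0. The 5 called members (Sdf2l1, Manf, Hspa5, P4hb, Xbp1) and Hsp90b1 and Pdia6 show no overlap between groups, while Hyou1, Edem1, Sel1l, Derl2 and Ddit3 overlap.

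The members differed widely in level. Levels per kilobase of exon (CPM per kb) were highest for Hspa5, at 250 in the libraries labelled Hdc-/- and 288 in WT. P4hb followed in WT, at 208 CPM per kb in the libraries labelled Hdc-/- and 240 CPM per kb in WT, and then Canx, at 219 CPM per kb in the libraries labelled Hdc-/- and 230 CPM per kb in WT. Xbp1 stood far above the sensors, at 102 CPM per kb in the libraries labelled Hdc-/- and 119 CPM per kb in WT. Ern1 was at 2.55 CPM per kb in the libraries labelled Hdc-/- and 2.74 CPM per kb in WT, Eif2ak3 at 4.88 CPM per kb in the libraries labelled Hdc-/- and 4.48 CPM per kb in WT, and Atf6 at 6.47 CPM per kb in the libraries labelled Hdc-/- and 6.82 CPM per kb in WT. The lowest were Derl3, at 0.934 CPM per kb in the libraries labelled Hdc-/- and 0.824 CPM per kb in WT, and Chac1, at 0.103 CPM per kb in the libraries labelled Hdc-/- and 0.294 CPM per kb in WT. All 5 called members were among the 15 highest of the 32 in WT. Members with few reads tended to have a larger SE, such as 0.17 for Trib3 against 0.05 for P4hb. Small steps were harder to call in them.

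Summed over the 10 chaperones and co-chaperones, levels were 2779, 2788, 2890 and 2936 CPM in the libraries labelled Hdc-/-, against 3284, 3195, 3132 and 3061 CPM in WT. The 6 isomerase and oxidase genes summed to 1279, 1295, 1218 and 1294 CPM in the libraries labelled Hdc-/-, against 1486, 1460, 1432 and 1421 CPM in WT. Neither sum overlapped between the groups. Hspa5, Canx and Hsp90b1 made up most of the chaperone sum, and P4hb, Pdia6 and Pdia4 most of the isomerase sum. The sums therefore say little about the less abundant genes. The 7 degradation genes summed to 598, 594, 612 and 626 CPM in the libraries labelled Hdc-/-, against 576, 614, 624 and 617 CPM in WT, with full overlap.

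Markers of other cell types also differed between the groups. All 10 neutrophil markers fell, and their summed level was 805 to 1408 CPM in the libraries labelled Hdc-/- against 2644 to 4071 CPM in WT. Of 12 myeloid progenitor markers 7 fell, among them the granule protein genes Mpo, Prtn3 and Ctsg, and the sum was 1385 to 1509 CPM in the libraries labelled Hdc-/- against 1704 to 1947 CPM in WT. Of 9 tested B cell markers 7 fell, with sums of 163 to 185 CPM in the libraries labelled Hdc-/-, against 264 to 342 CPM in WT for all 10. Of 9 tested red cell markers 8 rose, with sums of 394 to 449 CPM in the libraries labelled Hdc-/-, against 147 to 172 CPM in WT. WT 1 was the highest WT library for Sdf2l1, Manf, P4hb and Xbp1, and WT 2 for Hspa5. In WT 1 the neutrophil sum of 4071 CPM and the B cell sum of 342 CPM were the highest of the 8 libraries. Its stem and progenitor sum of 4712 CPM was the lowest. Among the libraries labelled Hdc-/-, the unnumbered one had the highest neutrophil sum, 1408 CPM, and the lowest Sdf2l1 level, 51.5 CPM. The same library had the highest chaperone sum of that group, 2936 CPM, and the highest Hspa5 level, 1005 CPM. Of the 31 tested members it was the highest of its group in 12 and the lowest in 8. Whether marker sums and ER gene levels go together across libraries was not tested.

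Plasma cell markers, which mark the marrow cell best known for this machinery, did not move one way. Their sums were 71.2 to 80.3 CPM in the libraries labelled Hdc-/-, against 70.5 to 97.1 CPM in WT. Of 7 tested, Sdc1 rose (0.62), and 2010001M09Rik (-1.15) and Slamf7 (-1.12) fell. The symbol 2010001M09Rik is the older name of Mzb1, which was an entry under that name only. Igj and Tnfrsf17 were under the filter. Basophil and mast cell markers summed to 17.1 to 28.1 CPM in the libraries labelled Hdc-/-, against 91.6 to 144 CPM in WT, with 2 of 5 tested lower. T and NK cell markers summed to 279 to 288 CPM in the libraries labelled Hdc-/-, against 339 to 432 CPM in WT, with 1 of 4 tested lower. The lower one, Nkg7 (-0.40), made up most of this sum in every library. Its own level was 258 to 274 CPM under the Hdc-/- label and 323 to 411 CPM in WT. Cd3e, Cd3d and Cd3g were under the filter. The T and NK cell sum therefore says little about its other markers. None of 10 tested macrophage markers passed in edgeR, 6 had an unadjusted p under 0.05, and they summed to 137 to 163 CPM in the libraries labelled Hdc-/-, against 111 to 134 CPM in WT. The part of these cell type differences in the lower chaperone and isomerase levels was not tested.

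**Figure D4:**
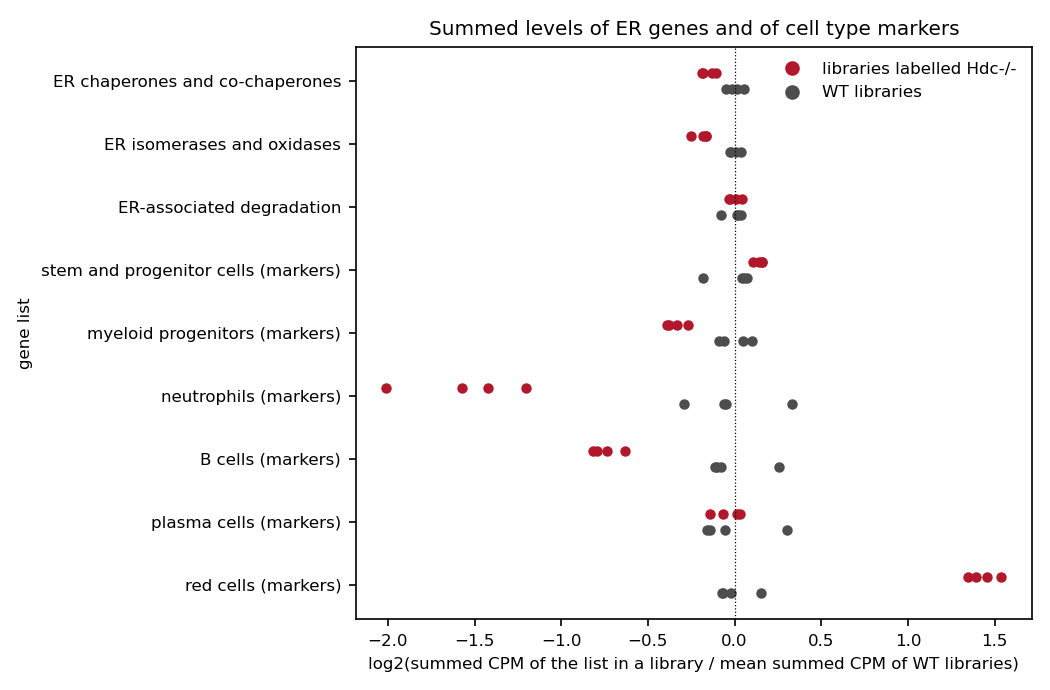
Summed CPM of ER gene groups and of cell type marker lists in each library, as log2 of the ratio to the mean of the 4 WT libraries; red points are libraries labelled Hdc-/-, grey points WT. The chaperone and isomerase sums of the libraries labelled Hdc-/- lie below every WT library by a small step, the neutrophil and B cell sums by larger steps, and the degradation sums overlap.

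Other genes of the secretory route, of stress signalling and of protein folding in the cytosol and mitochondria were read from 9 lists, in which 7 of 207 tested genes fell and none rose (3.38%, against 2.71% of all tested genes called lower and 4.76% called in either direction), with a median log2 fold change of -0.06. The luminal folding helpers held 3 of the 7 among 25 tested (median -0.12). Pdia3, the isomerase that works with the lectin chaperones, had 950, 944, 920 and 991 CPM in the libraries labelled Hdc-/-, against 1179, 1164, 1088 and 1100 CPM in WT (-0.25, SE 0.05, edgeR adjusted p = 0.00571). Calr, the soluble lectin chaperone calreticulin, had 346, 340, 331 and 290 CPM in the libraries labelled Hdc-/-, against 403, 389, 396 and 361 CPM in WT (-0.25, SE 0.06, edgeR adjusted p = 0.0332). Ppic, a cyclophilin, fell by 0.48 (SE 0.09, edgeR adjusted p = 0.00345). In all 3 every library labelled Hdc-/- lay below every WT library. Without library 2 or without library 3 of those labelled Hdc-/-, the 9 lists held 3 calls, Pdia3, Ppic and Eif2ak2, and without WT 1 they held 12.

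Steps before and after folding gave no call in edgeR, and in DESeq2 only Rpn1. None of 25 genes of entry into the ER passed (2 at an unadjusted p under 0.05), with Ssr2, of the translocon-associated complex, at -0.22 (edgeR adjusted p = 0.134). None of 24 genes of N-glycan attachment and glycoprotein control passed (6 at an unadjusted p under 0.05), with Rpn1, a subunit of the oligosaccharyltransferase, at -0.17 (edgeR adjusted p = 0.0863); in DESeq2 it passed (adjusted p = 0.0402). None of 29 tested genes of ER to Golgi transport passed (3 at an unadjusted p under 0.05), with the cargo receptor gene Tmed10 at -0.19 (edgeR adjusted p = 0.114). Among 24 tested further degradation genes none passed and none had an unadjusted p under 0.05, with a median of 0.00450 and Jkamp nearest at 0.20 (edgeR adjusted p = 0.376).

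Of 17 tested sensor partners and other regulators, Casp12, an ER-associated caspase, fell by 0.53 (SE 0.12, edgeR adjusted p = 0.016). Of 35 tested kinases and phosphatases of eIF2 alpha and ATF4 targets 2 fell. Eif2ak2, which encodes the interferon-inducible kinase PKR that also acts on eIF2 alpha, had 106, 99.3, 101 and 108 CPM in the libraries labelled Hdc-/-, against 134, 147, 128 and 123 CPM in WT (-0.36, SE 0.07, edgeR adjusted p = 0.00523). Mthfd2, a mitochondrial folate enzyme, fell by 0.39 (SE 0.09, edgeR adjusted p = 0.0206). In folding outside the ER, Hspa4, a cytosolic exchange factor, was the only call among 18 tested heat shock genes (-0.23, SE 0.05, edgeR adjusted p = 0.0139), and none of 10 mitochondrial folding genes passed (2 at an unadjusted p under 0.05), with Trap1 at -0.17 (edgeR adjusted p = 0.114).

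**Figure D5:**
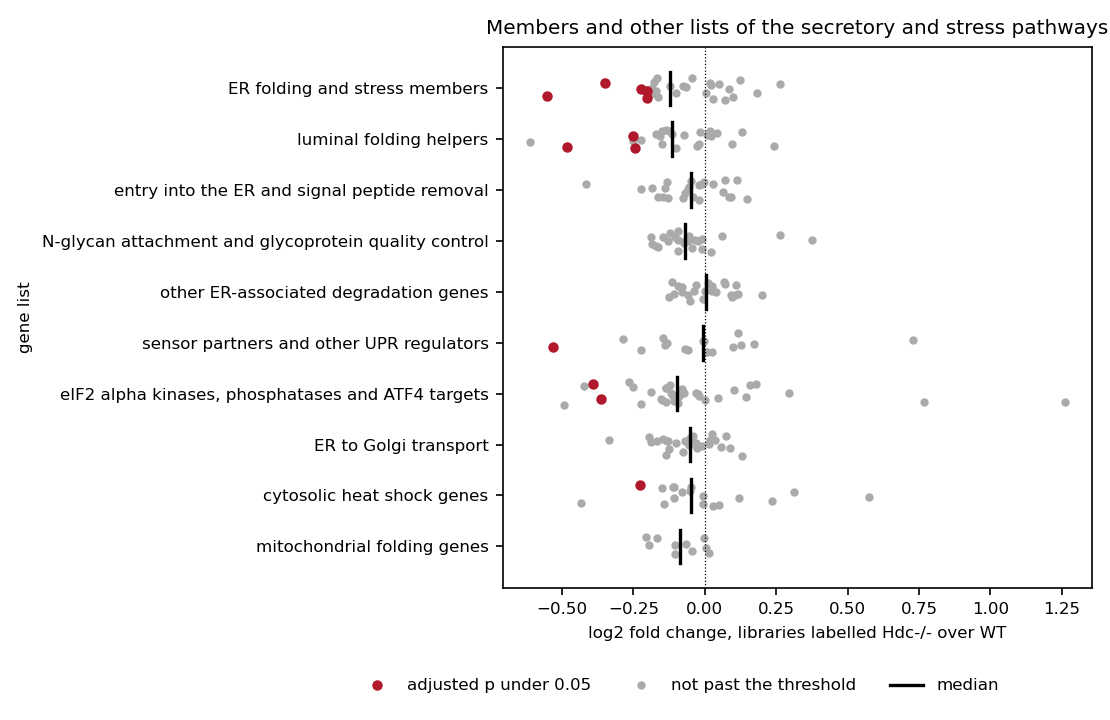
Log2 fold change, libraries labelled Hdc-/- over WT, of the 31 tested members and of 207 tested genes in 9 other lists; each point is a gene, red marks an adjusted p under 0.05 and black bars are medians. The members and the luminal folding helpers have the lowest medians (-0.12 each), and the further degradation genes lie around 0.

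Some members share exon sequence with another gene, and the counts were made from libraries that do not mark strand. In GENCODE M21, the longest shared stretch was 329 bases between Ppib and Snx22, 270 bases between Hsp90b1 and 1810014B01Rik, and 231 bases between Derl2 and Mis12. Syvn1, Ddit3 and Pdia6 share up to 91, 68 and 50 bases with a neighbour on the other strand. On their own strand, Manf shares 14 bases with Rbm15b and Pdia4 shares 14 bases with Mir704. How reads there were assigned is not given in the sources used here, so these values carry that uncertainty. Of the 5 called members, Sdf2l1, Hspa5, P4hb and Xbp1 had no such overlap with another gene of the count table.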

How the data were processed

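RNA of sorted HSPC was measured in 4 samples labelled Hdc-/- and 4 labelled WT. The authors deposited unnormalized counts of reads for each gene symbol. Per the labels' protocols, the kits were PicoPure (RNA), SMARTer Ultra Low Input (cDNA) and Nextera XT (libraries, without strand). Per the submitters' processing notes the build was mm9 and the tools included HTSeq 0.6.1, TopHat2 2.0.4, Bowtie2 and bcl2fastq 1.8.4. There were no molecular identifiers. Annotation, strand setting and counting mode: not given in the sources used here.

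Of 23284 entries, 2 labelled only with a number (at most 0.032% of reads) were left out. The fourth column labelled Hdc-/- could be tied to its group only, and is the unnumbered library; 0 columns were unused. No library was a copy of another (chi-square per gene at least 6.84 within groups, over genes with at least 80 reads). Library codes are consecutive within a group, so any order of preparation they record cannot be told apart from the group.

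The test was the two-sided quasi-likelihood test of edgeR 4.0.16 in R 4.3.3 (glmQLFit, robust, then glmQLFTest; TMM scaling, no covariate) on 13005 genes kept by filterByExpr (minimum count 10, minimum total 15), with Benjamini-Hochberg adjustment over all of them and a threshold of 0.05. SE is the fold change over the square root of F. DESeq2 1.42.0, limma-voom (limma 3.58.1), other scalings and filters, a replicate block and fits without each library were alternatives. The scripts were tested on simulated data. Named are all members, Hdc, up to 4 called genes of each other list (or the 1 of smallest p) and markers of some cell types. Up to 2 called markers of smallest p for each cell type were planned, but the markers named here are often others. Some markers and further genes were chosen after their values were seen. Exon lengths and overlaps came from GENCODE M21, promoters from RefSeq (GRCm38.p6), which differ from mm9; Hyou1, Manf, Derl1 and Atf6 had no promoter there. The members and lists were chosen with earlier results of these data known.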

Additional observations from a re-analysis of the deposited data

Results flagged for a closer look

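Dixon's test was applied to the CPM of each of the 32 members and Hdc in each group of 4 libraries, 66 groups in all, of which chance flags about 1 in 20. It marked 1. Derl2, a derlin of the degradation channel, had 66.3 CPM in library 1 of those labelled Hdc-/-, apart from 78.1 to 80.4 CPM in the other 3.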

How the results depend on the processing

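Over 17 alternatives, 16 of them planned, 23 of the 31 tested members kept the sign of their fold change in each, and Sdf2l1 was called in each. Called members numbered 5, against 10 in limma-voom with sample quality weights, 1 to 9 without single libraries and 2 with the replicate block on libraries 1 to 3. The same 6 libraries without a block, an alternative added after seeing the data, gave 3. Same-numbered libraries did not deviate together (correlations -0.0607, -0.0165 and -0.000331; 0 of 3 matched best with their own number). Over all genes calls numbered 619, against 950 in DESeq2, 379 to 815 without single libraries, 312 with the block and 345 without it; genes called lower numbered 352, against 189 with the block and 211 without it. Calls in the other 9 lists numbered 7, against 13 in DESeq2, 14 with quality weights, 3 to 12 without single libraries, 3 with the block and 4 without it. In the fits with fewer libraries, fewer samples enter the test; other causes were not tested.

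Signs changed only for members that were not called. Ero1l was at -0.0111 with quality weights and between -0.0339 and 0.122 without single libraries. Herpud1 was at -0.000437 with no filter, -0.0483 with the block and -0.0472 without it, and between -0.0287 and 0.0388 without single libraries. Derl2 was at -0.0119 with the block and -0.0159 without it, and between -0.00915 and 0.123 without single libraries. Without single libraries Derl3 lay between -0.109 and 0.514 and Sel1l between -0.0222 and 0.139. With the block, Syvn1 was at 0.0252 and Ern1 at 0.0557, and on those 6 libraries without it Syvn1 was at 0.0240 and Ern1 at 0.0454. Ddit3 was at -0.00958 with the block and -0.0139 without it, and between -0.0209 and 0.0794 without single libraries. Genes called lower over all genes numbered 242 to 433 without single libraries.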
